A study of Homo sapiens with 12 samples.

Results

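The TRIM (tripartite motif) genes were examined in a pair of urothelial carcinoma cell lines with and without ectopic HOTAIR, a long noncoding RNA that is transcribed from the HOXC locus and is known to bind chromatin-modifying complexes. A gene counted as a member when a probe set of the array carried exactly 1 gene symbol made of TRIM, digits and an optional letter. TRIM9 was excluded beforehand and is not analysed here. The rule gave 58 genes with 156 probe sets, out of 18132 genes and 49293 probe sets that are not controls. A gene's value was the mean of its probe sets. Of the 58 members, 44 had several probe sets, at most 6, and 14 had 1. A further 15 probe sets with a TRIM symbol beside another symbol were left out, and TRIM16, TRIM23 and TRIM39 are not analysed here.

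Expression was measured with Affymetrix PrimeView arrays on 12 RNA preparations, with 3 in each of 4 groups. VM-CUB1 and 5637 are established urothelial carcinoma lines, and cells of each were transfected with a HOTAIR plasmid or with the empty vector, and clones were selected with puromycin. The vector controls thus went through the same transfection and puromycin selection as the HOTAIR cells. For replicates 2 and 3 of both 5637 groups the source label gives another cell number, while title and cell line label say 5637, which was used. VM-CUB1_HOTAIR 20 was compared with VM-CUB1_LV, and 5637_HOTAIR 4 with 5637_LV. The HOTAIR group of each line is 1 clone, numbered 20 or 4, and its 3 replicates are separate RNA preparations, so the p-values reflect variation among preparations of that clone, and an effect of HOTAIR cannot be told apart from a difference between clones. The deposited log2 values were centred by probe set, since the median of the 6 arrays of a line is 0 for each, to within 5.0e-07. They give differences within a line and hold no expression level, so neither the labelled cell type nor the level of any TRIM gene could be checked, and HOTAIR itself is not analysed here. Arrays of a group correlated at 0.94 to 0.948 in VM-CUB1_HOTAIR 20, 0.918 to 0.946 in VM-CUB1_LV, 0.832 to 0.848 in 5637_HOTAIR 4 and 0.775 to 0.829 in 5637_LV (Pearson, across genes of centred values). Centred values keep the difference between HOTAIR and vector, so these correlations depend on its size in a line. They do not compare the quality of replicates between the lines.

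TRIM proteins share a RING finger, B-boxes and a coiled coil, and most of them are E3 ubiquitin ligases that attach ubiquitin to a substrate chosen by the C-terminal domain. Many carry a C-terminal PRY-SPRY domain that binds proteins, among them viral capsids and antibody chains, while others carry NHL repeats, a filamin domain, a COS box that binds microtubules, or the PHD finger and bromodomain of the TIF1 chromatin regulators. Several are switched on by interferon, whose receptors signal through JAK kinases to factors such as IRF9 that bind the interferon-stimulated response element (ISRE) in promoters.

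Promoters of interferon-linked members that hold the letters of that element are shown, since the element can be read directly in them. RefSeq windows of GRCh38.p14, from 250 bases before to 50 bases after an annotated start, were at hand for 45 of the 58 members (61 windows). The core of the ISRE, GAAANNGAAA on either strand, occurred in 3.57% of 35116 windows of all genes. Among TRIM windows it occurred in 8 of 61 (13.1%), and among the windows of interferon-linked members in 4 of 7 (57.1%), which belong to TRIM5, TRIM14, TRIM21 and TRIM34. Among the windows of the other members it occurred in 4 of 54 (7.41%), which belong to TRIM2, TRIM26, TRIM44 and TRIM69 and are not printed. The windows of TRIM25 and TRIM38 and the other window of TRIM34 had no match and are not printed. The GAS element, TTCNNNGAA, which reads the same on both strands, was in 7.66% of all windows, in 10 of 61 TRIM windows (16.4%) and in 0 of the 7 interferon-linked ones. Those 10 windows belong to 7 genes, as windows of a gene can overlap. Capitals mark the ISRE core. The TRIM5 window is chr11:5685025-5685324 on the minus strand, with the match 27 bases before the start, and that of TRIM14 is chr9:98119173-98119472 on the minus strand, with the match 26 bases before the start. The TRIM21 window is chr11:4393653-4393952 on the minus strand, with 2 overlapping matches that begin 17 and 23 bases after the start. The first TRIM34 window is chr11:5624751-5625050 on the plus strand, with the match 90 bases before the start. TRIM6, which lies in the same gene cluster and has no match in these letters, is given for comparison at chr11:5596387-5596686 on the plus strand.
TRIM5: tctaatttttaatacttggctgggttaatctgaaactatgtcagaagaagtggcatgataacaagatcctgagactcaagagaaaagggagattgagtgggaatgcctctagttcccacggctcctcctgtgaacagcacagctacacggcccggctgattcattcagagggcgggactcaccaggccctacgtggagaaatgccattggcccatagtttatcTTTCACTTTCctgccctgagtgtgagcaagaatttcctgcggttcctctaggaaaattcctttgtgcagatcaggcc
TRIM14: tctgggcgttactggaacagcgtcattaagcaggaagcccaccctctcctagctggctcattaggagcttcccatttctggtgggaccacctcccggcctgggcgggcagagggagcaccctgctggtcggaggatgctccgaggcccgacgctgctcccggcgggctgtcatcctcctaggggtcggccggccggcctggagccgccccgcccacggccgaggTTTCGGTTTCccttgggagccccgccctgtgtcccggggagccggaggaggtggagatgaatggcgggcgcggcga
TRIM21: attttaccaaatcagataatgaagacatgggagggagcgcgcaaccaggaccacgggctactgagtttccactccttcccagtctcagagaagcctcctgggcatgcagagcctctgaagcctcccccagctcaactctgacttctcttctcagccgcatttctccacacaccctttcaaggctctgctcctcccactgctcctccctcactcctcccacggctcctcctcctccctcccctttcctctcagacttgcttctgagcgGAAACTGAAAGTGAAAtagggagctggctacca
TRIM34: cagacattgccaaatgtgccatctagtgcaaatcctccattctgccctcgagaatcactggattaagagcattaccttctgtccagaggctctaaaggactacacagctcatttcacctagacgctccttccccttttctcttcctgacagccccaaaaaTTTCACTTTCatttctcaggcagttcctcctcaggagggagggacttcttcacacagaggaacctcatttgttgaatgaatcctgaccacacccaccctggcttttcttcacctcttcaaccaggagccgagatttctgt
TRIM6: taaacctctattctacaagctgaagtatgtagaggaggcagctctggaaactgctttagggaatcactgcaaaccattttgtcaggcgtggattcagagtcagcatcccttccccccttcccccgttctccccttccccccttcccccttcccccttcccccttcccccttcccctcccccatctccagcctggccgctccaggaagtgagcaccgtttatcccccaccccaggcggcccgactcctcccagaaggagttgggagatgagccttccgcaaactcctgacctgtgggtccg
A match is a run of letters and no measured binding. TRIM22 has no window in the table used here.

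In VM-CUB1, 27 of 58 TRIM genes differed between HOTAIR and vector at an adjusted p under 0.01 (46.6%), beside 41.6% of all genes tested. Of these, 15 were higher and 12 were lower, where 21.1% of all genes were higher and 20.5% lower. In 5637, 16 TRIM genes were called (27.6%), beside 29.9% of all genes, with 7 higher and 9 lower (14.7% and 15.2% of all genes). The test was limma's moderated, two-sided test within each line, with Benjamini-Hochberg adjustment over the 18132 genes. TRIM genes as a family were thus called about as often as other genes, and the median log2 fold change was 0.0015 in VM-CUB1 and -0.031 in 5637, beside -0.029 and -0.038 over all genes. Changes of at least 2-fold were called for 8 TRIM genes in VM-CUB1 (11.7% of all genes) and for 5 in 5637 (3.74% of all genes). The log2 fold changes of the 58 genes in the 2 lines had a Spearman correlation of 0.1455, beside 0.06009 over all genes, given as a description across genes. Between the lines, the HOTAIR effect differed for 21 TRIM genes by limma's interaction term at an adjusted p under 0.01, beside 42% of all genes, with 12 more positive and 9 more negative in VM-CUB1.

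**Figure D1:**
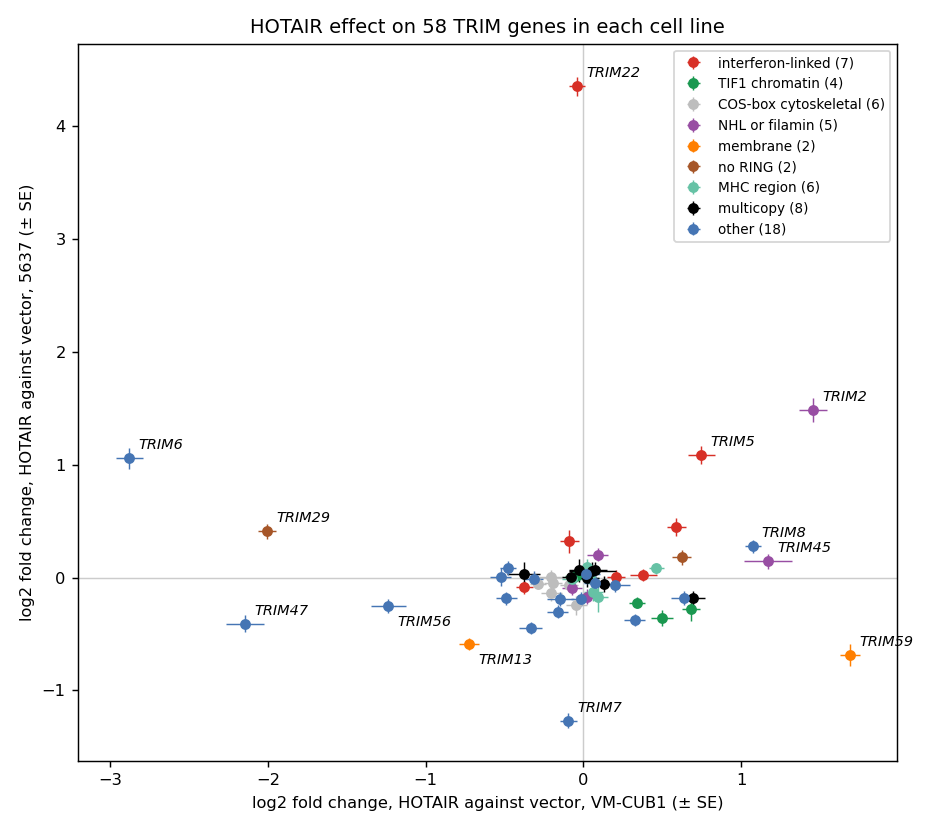
Log2 fold change of HOTAIR against vector in VM-CUB1 (x axis) and in 5637 (y axis) for the 58 TRIM genes, coloured by family group, with bars of 1 SE of the fit (3 arrays against 3 in each line). TRIM22 stands apart at 4.35 on the 5637 axis and -0.04 on the VM-CUB1 axis, TRIM2 lies near 1.5 on both axes, and TRIM6, TRIM29 and TRIM59 lie where the lines have opposite signs.

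Of the 7 interferon-linked members, 3 rose (TRIM5, TRIM21 and TRIM38) and 1 fell (TRIM14) in VM-CUB1, beside 21.1% and 20.5% of all genes. In 5637, TRIM5, TRIM21 and TRIM22 rose (3 genes), beside 14.7% of all genes. No fall was called in 5637 among the 7, beside 15.2% of all genes, and 0 were lower there at an unadjusted p under 0.05 or by the methods' t-test. The median log2 fold change of the 7 was 0.21 in VM-CUB1 and 0.32 in 5637. When probe sets whose IDs mark probes shared with other transcripts were left out, 5 of the 7 could be tested. Of these 5, 2 were higher and 0 were lower in VM-CUB1, and 2 were higher and 0 were lower in 5637. Among the 51 other members, VM-CUB1 had 12 rises and 11 falls and 5637 had 4 rises and 9 falls, with medians of -0.017 and -0.057. The interferon-linked genes were picked with earlier results on these arrays known, and no test of the group was made.

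TRIM22, an interferon-induced ligase known for restricting several viruses, had the widest separation of any member in 5637. Its centred log2 values there were 2.23, 2.04 and 2.20 in 5637_HOTAIR 4 and -2.20, -2.05 and -2.36 in 5637_LV. The groups lay more than 4 log2 units apart on every pair of arrays, and the log2 fold change was 4.35 ± 0.088 (SE, adjusted p = 4.1e-08, limma). In VM-CUB1 the 6 arrays lay between -0.02 and 0.08 with overlapping groups, at a log2 fold change of -0.04 ± 0.052 (adjusted p = 0.57, limma). All 6 of its probe sets rose in 5637, by log2 fold changes from 2.27 to 5.44. In VM-CUB1 they lay between -0.28 and 0.14, at adjusted p from 0.029 to 0.98. The interaction gave a difference of -4.39 (95% interval -4.62 to -4.17, adjusted p = 1.9e-12, limma).

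TRIM5, the capsid-binding factor that blocks retroviruses after entry, rose in both lines. In VM-CUB1 its values were 0.51, 0.25 and 0.44 with HOTAIR and -0.23, -0.42 and -0.40 with vector, and in 5637 they were 0.53, 0.55 and 0.39 with HOTAIR and -0.42, -0.66 and -0.70 with vector. Every HOTAIR array was above every vector array of its line. The rise was 1.68-fold in VM-CUB1 (log2 0.75 ± 0.085, adjusted p = 9e-05) and 2.12-fold in 5637 (log2 1.09 ± 0.083, adjusted p = 2.2e-05, limma). The difference between the lines was -0.34 (95% interval -0.61 to -0.07) and missed the threshold at an adjusted p of 0.04, although it passed after quantile normalization (-0.70, adjusted p = 0.00043) and without 5637_LV replicate 1 (0.0093, limma). In VM-CUB1, 2 probe sets whose IDs mark probes shared with other transcripts rose by 0.90 and 1.01, and the remaining one was at 0.34, so that without shared probes the gene was not called there (adjusted p = 0.086, limma).

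TRIM21, a cytosolic receptor for antibody-coated pathogens, also rose in both lines. Its values in VM-CUB1 were 0.24, 0.36 and 0.27 with HOTAIR and -0.24, -0.35 and -0.30 with vector. In 5637 they were 0.12, 0.22 and 0.25 with HOTAIR and -0.39, -0.12 and -0.24 with vector. Groups did not overlap in either line. The log2 fold changes of 0.59 ± 0.060 (adjusted p = 4.8e-05) and 0.45 ± 0.078 (adjusted p = 0.002, limma) differed by 0.14, with a 95% interval from -0.08 to 0.36. The only probe set of TRIM21 has an ID that marks shared probes, so the gene could not be tested without them.

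TRIM14, an adaptor of antiviral signalling at mitochondria, was the interferon-linked member that fell in VM-CUB1. Values were -0.17, -0.18 and -0.22 with HOTAIR and 0.23, 0.19 and 0.14 with vector, a log2 fold change of -0.37 ± 0.053 (adjusted p = 0.00038, limma). The VM-CUB1 groups were apart, whereas in 5637 the HOTAIR values of -0.08, -0.02 and 0.01 met the vector values of 0.01, 0.05 and 0.13, at a log2 fold change of -0.09 (adjusted p = 0.25). Its 3 probe sets with shared probes fell in VM-CUB1 by log2 fold changes from -0.55 to -0.39, while the single one without shared probes was at -0.08, where the call was lost (adjusted p = 0.48, limma). The difference between the lines (-0.29, adjusted p = 0.0042) was lost without VM-CUB1_HOTAIR 20 replicate 3, 5637_HOTAIR 4 replicate 2 or 3, or 5637_LV replicate 1, at adjusted p from 0.01 to 0.014 (limma). It was also lost after quantile normalization (-0.24, adjusted p = 0.013), and without shared probes it was -0.018 (adjusted p = 0.93, limma).

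TRIM38, a regulator of innate immune signalling, was higher in VM-CUB1_HOTAIR 20 at 0.10, 0.17 and 0.14 than in VM-CUB1_LV at -0.05, -0.36 and -0.32. The vector arrays were scattered, with replicate 1 close to the HOTAIR arrays. Its log2 fold change of 0.38 ± 0.086 passed (adjusted p = 0.0055) but not when any 1 of 5 arrays was left out, which were all 3 HOTAIR arrays and vector replicates 2 and 3 (adjusted p 0.015 to 0.022, limma). In 5637 the gene was at 0.02 (adjusted p = 0.79). TRIM25, the ligase that acts with the RNA sensor RIG-I, had VM-CUB1 values of 0.16, 0.07 and 0.09 with HOTAIR and -0.05, -0.11 and -0.14 with vector. These groups were apart, yet the log2 fold change of 0.21 ± 0.056 missed the threshold (adjusted p = 0.013, limma), and passed with arrays centred on their median or quantile normalized (0.0088 in both). Without shared probes it was 0.36 and passed (adjusted p = 0.001, limma). TRIM34, a close relative of TRIM5, had 5637 values of 0.23, 0.00 and 0.12 with HOTAIR and -0.39, -0.00 and -0.22 with vector, a log2 fold change of 0.32 ± 0.102 that was not called (adjusted p = 0.035), except without 5637_LV replicate 2 (0.0083, limma). In VM-CUB1, TRIM34 was at -0.09 with overlapping groups. The only probe set of TRIM34 also has an ID that marks shared probes.

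**Figure D2:**
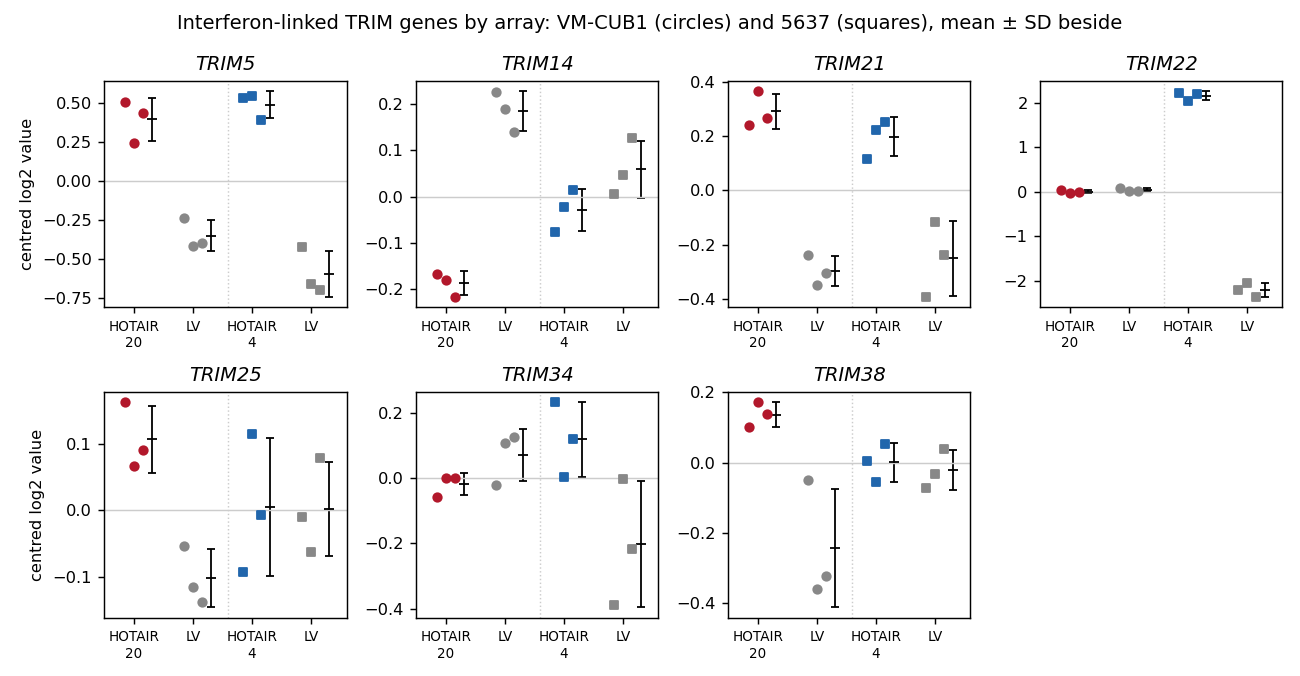
Centred log2 value (y axis, its own scale in each panel) of the 7 interferon-linked TRIM genes on each of the 12 arrays, with VM-CUB1 as circles and 5637 as squares, HOTAIR in colour and vector (LV) in grey, and the mean ± SD of 3 arrays beside the points. HOTAIR and vector arrays do not overlap for TRIM5 and TRIM21 in both lines, for TRIM22 and, by a narrow margin, TRIM34 in 5637, and for TRIM14, TRIM25 and TRIM38 in VM-CUB1.

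TRIM22, TRIM5, TRIM6 and TRIM34 are neighbours on the short arm of chromosome 11, and their HOTAIR effects differed within the cluster. TRIM6, a ligase that builds free ubiquitin chains used in interferon signalling, had the largest fall of any TRIM gene in VM-CUB1 and rose in 5637. Its VM-CUB1 values were -1.30, -1.54 and -1.55 with HOTAIR and 1.30, 1.51 and 1.44 with vector, and its 5637 values were 0.40, 0.36 and 0.42 with HOTAIR and -0.43, -0.78 and -0.77 with vector. The groups stood wide apart in opposite orders. TRIM6 fell 7.35-fold in VM-CUB1 (log2 -2.88 ± 0.087, adjusted p = 2.8e-08) and rose 2.08-fold in 5637 (log2 1.06 ± 0.093, adjusted p = 4.8e-05, limma), a difference of -3.93 (95% interval -4.23 to -3.64). Its annotated span overlaps that of TRIM5, which rose in both lines and also overlaps TRIM34. The 2 probe sets of TRIM6 had the same sign in each line with unequal sizes, at -4.84 and -0.92 in VM-CUB1 and at 1.76 and 0.35 in 5637, the last not called (adjusted p = 0.011, limma).

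By the RefSeq gene table, 22 pairs of TRIM genes lie within 100 kb of each other. Of all genes, 41.6% were called in VM-CUB1 and 29.9% in 5637. Neighbouring pairs of other genes were not counted, so the numbers below do not show that neighbours change together. In VM-CUB1, 3 pairs were called in the same direction: TRIM11 with TRIM17 on chromosome 1 and TRIM47 with TRIM65 on chromosome 17 fell, and TRIM41 with TRIM52 on chromosome 5 rose. In 5637 there were 4 such pairs. TRIM5, TRIM6 and TRIM22 on chromosome 11 rose and make up 3 of them, and TRIM7 with TRIM41 on chromosome 5 fell. The VM-CUB1 calls of TRIM11, TRIM17 and TRIM41 were lost without VM-CUB1_HOTAIR 20 replicate 1 (adjusted p 0.01 to 0.017, limma). TRIM11 was also lost without any other array but VM-CUB1_LV replicate 2 (0.01 to 0.024), and TRIM41 without VM-CUB1_HOTAIR 20 replicate 2 or VM-CUB1_LV replicate 1 or 2 (0.01 to 0.013).

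A total of 13 TRIM genes were called in both lines. TRIM2, TRIM5, TRIM8 and TRIM21 were higher in both, beside 5.56% of all genes, and TRIM11, TRIM13 and TRIM47 were lower in both, beside 5.05%. TRIM6, TRIM28, TRIM29, TRIM33, TRIM41 and TRIM59 moved in opposite directions, beside 8.26%. A further 14 were called in VM-CUB1 alone, 3 in 5637 alone (TRIM7, TRIM22 and TRIM37) and 28 in neither.

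TRIM2, an NHL-repeat ligase known from mouse neurons, where it targets a neurofilament subunit, rose in both lines. Values in VM-CUB1 were 0.71, 0.64 and 0.69 with HOTAIR and -0.59, -0.92 and -0.83 with vector. In 5637 they were 0.64, 0.70 and 0.60 with HOTAIR and -0.58, -1.04 and -0.90 with vector, so that groups were wide apart in each line. The log2 fold changes were 1.46 ± 0.086 (adjusted p = 1.6e-06) and 1.48 ± 0.108 (adjusted p = 1.7e-05, limma), and their difference was -0.03 with a 95% interval from -0.35 to 0.30 (adjusted p = 0.9). After quantile normalization across all 12 arrays, which forces both lines to the same spread, the difference was -0.67 and passed (adjusted p = 0.0027, limma). All 3 probe sets of TRIM2 rose in both lines.

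TRIM13, a ligase anchored in the endoplasmic reticulum membrane that takes part in the degradation of misfolded proteins, fell in both lines. Its values were -0.34, -0.30 and -0.42 with HOTAIR against 0.29, 0.36 and 0.45 with vector in VM-CUB1, and -0.28, -0.31 and -0.26 against 0.39, 0.26 and 0.26 in 5637. The groups were apart, with log2 fold changes of -0.72 ± 0.065 (adjusted p = 2e-05) and -0.59 ± 0.055 (adjusted p = 6.9e-05, limma). Its 5 probe sets fell in 5637, and 4 of them fell in VM-CUB1. TRIM59, the other membrane-anchored member, was opposite between the lines. With HOTAIR it was at 0.81, 0.85 and 0.84 in VM-CUB1, where vector arrays were at -0.90, -0.75 and -0.93, and at -0.21, -0.43 and -0.49 in 5637, where vector arrays were at 0.47, 0.19 and 0.27. It rose 3.23-fold in VM-CUB1 (log2 1.69 ± 0.063, adjusted p = 9.3e-08) and fell 1.61-fold in 5637 (log2 -0.69 ± 0.095, adjusted p = 0.00057, limma), a difference of 2.38 (95% interval 2.12 to 2.64). The 2 probe sets of TRIM59 rose in VM-CUB1 (0.89 and 2.49), whereas in 5637 1 fell (-1.14) and the one at -0.24 was not called.

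TRIM29, a member without a RING finger that is typical of basal and squamous epithelium and known in the DNA damage response, fell in VM-CUB1 and rose in 5637. HOTAIR arrays were at -0.98, -1.0 and -0.99 and vector arrays at 1.08, 0.96 and 1.01 in VM-CUB1. In 5637 they were at 0.13, 0.14 and 0.30 with HOTAIR and -0.16, -0.20 and -0.30 with vector. The fall was 4.01-fold (log2 -2.00 ± 0.055, adjusted p = 1.6e-08) and the rise in 5637 was 1.33-fold (log2 0.41 ± 0.067, adjusted p = 0.0015, limma). The 6 probe sets of TRIM29 ranged from -3.83 to 0.06 in VM-CUB1, where 5 fell and 1 was not called, and from 0.36 to 0.45 in 5637, where 4 rose. TRIM44, also without a RING finger, was named after its values were seen, as were TRIM4, TRIM17, TRIM27, TRIM35, TRIM37, TRIM51, TRIM54, TRIM63, TRIM67 and TRIM68. It rose in VM-CUB1 (log2 0.62, adjusted p = 3.3e-05) and was at 0.18 in 5637 (adjusted p = 0.066, limma).

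**Figure D3:**
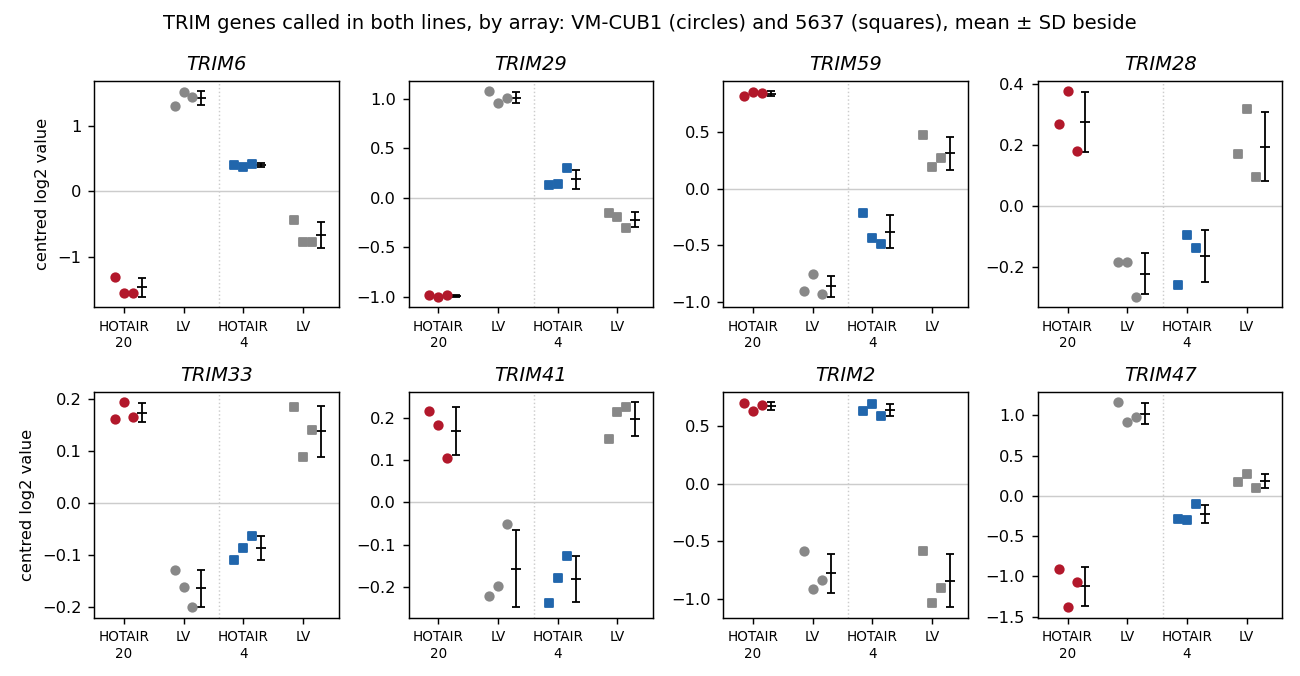
Centred log2 value (y axis, its own scale in each panel) on each of the 12 arrays for 8 TRIM genes called in both lines, with VM-CUB1 as circles and 5637 as squares, HOTAIR in colour and vector (LV) in grey, and the mean ± SD of 3 arrays beside the points. The order of HOTAIR and vector turns between the lines for TRIM6, TRIM29, TRIM59, TRIM28, TRIM33 and TRIM41, and is the same for TRIM2 and TRIM47.

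Of the 4 TIF1 chromatin members, which carry a PHD finger and a bromodomain, 3 had a HOTAIR effect that differed between the lines, beside 42% of all genes. Of the 4, 3 rose in VM-CUB1 (TRIM28, TRIM33 and TRIM66), beside 21.1% of all genes. In 5637, 2 fell (TRIM28 and TRIM33), beside 15.2% of all genes. TRIM28, the corepressor recruited by KRAB zinc finger proteins, was at 0.27, 0.38 and 0.18 with HOTAIR and -0.18, -0.18 and -0.30 with vector in VM-CUB1, and at -0.26, -0.10 and -0.14 with HOTAIR and 0.17, 0.32 and 0.10 with vector in 5637. The groups did not overlap, with log2 fold changes of 0.50 ± 0.068 (adjusted p = 0.00031) and -0.36 ± 0.073 (adjusted p = 0.0046, limma). TRIM33, which binds SMAD proteins in TGF-beta signalling, was at 0.34 (adjusted p = 0.00058) and -0.22 (adjusted p = 0.007, limma). Of its 3 probe sets, 1 rose in VM-CUB1 (0.86), while those at 0.26 and -0.11 were not called. In 5637 they lay between -0.26 and -0.20, and 0 were called. The falls of TRIM28 and TRIM33 in 5637 were close to the threshold. That of TRIM28 was lost without 5637_LV replicate 1 or 2, and without replicate 1 or 3 of 5637_HOTAIR 4 (adjusted p 0.013 to 0.019), and that of TRIM33 without any 1 array but 5637_LV replicate 2 (0.017 to 0.033), so that 0 to 1 of the 4 genes were called there with 1 array less. The fall of TRIM33 was also lost with a replicate block (adjusted p = 0.021), with arrays centred on their median (0.017), after quantile normalization (0.018), with the median of probe sets (0.012) and without shared probes (0.011, limma). That of TRIM28 was lost after quantile normalization (0.01) and by the methods' t-test. TRIM66, known from the germ line and from heterochromatin, was at 0.32, 0.41 and 0.28 with HOTAIR and -0.37, -0.32 and -0.36 with vector in VM-CUB1. It rose there by 0.68 ± 0.057 (adjusted p = 1.3e-05) and was not called in 5637 (-0.28 ± 0.103, adjusted p = 0.061, limma). TRIM24, a reader of histone marks, was near 0 in both lines (-0.05 and 0.01). The difference between the lines passed for TRIM28 (0.86, adjusted p = 1e-05), TRIM33 (0.56, 7e-06) and TRIM66 (0.97, 2e-05), and not for TRIM24 (0.63, limma).

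Among the NHL-repeat and filamin-domain members, 2 of 5 rose in VM-CUB1 (TRIM2 and TRIM45) and 1 in 5637 (TRIM2), beside 21.1% and 14.7% of all genes. TRIM45, a filamin-domain ligase that lowers MAP kinase signalling, had VM-CUB1 values of 0.31, 0.70 and 0.59 with HOTAIR and -0.30, -0.81 and -0.80 with vector. The groups were apart with a wide spread, replicate 1 of each lying nearest to 0, and the log2 fold change was 1.17 ± 0.153 (adjusted p = 0.00022, limma). In 5637 it was at 0.14 (adjusted p = 0.13). TRIM32, the NHL-repeat ligase of limb-girdle muscular dystrophy, was not called in VM-CUB1 (0.09, adjusted p = 0.3) or in 5637 (0.20, adjusted p = 0.023, limma).

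Of the 18 members of no smaller group, most of them PRY-SPRY proteins, VM-CUB1 had 3 rises and 8 falls, beside 21.1% and 20.5% of all genes. For 5637 there were 2 rises and 5 falls, beside 14.7% and 15.2%. TRIM47 fell in both lines. Its single probe set was at -0.92, -1.39 and -1.07 with HOTAIR and 1.17, 0.92 and 0.98 with vector in VM-CUB1, and at -0.29, -0.30 and -0.10 with HOTAIR and 0.17, 0.27 and 0.10 with vector in 5637. The fall was 4.42-fold in VM-CUB1 (log2 -2.15 ± 0.121, adjusted p = 1.2e-06) and 1.33-fold in 5637 (log2 -0.41 ± 0.072, adjusted p = 0.0022, limma), the latter lost without 5637_HOTAIR 4 replicate 1 or 2 (0.011 in both). TRIM56, a ligase of the responses to foreign DNA and RNA, was at -0.60, -0.56 and -0.49 with HOTAIR and 0.96, 0.61 and 0.49 with vector in VM-CUB1, a fall of 1.24 ± 0.112 on the log2 scale (adjusted p = 2.2e-05, limma). All HOTAIR arrays were below all vector arrays, and in 5637 the log2 fold change of -0.25 was not called (adjusted p = 0.016) except without 5637_LV replicate 2 (0.0099). TRIM65, which acts with the RNA sensor MDA5, fell in VM-CUB1 (log2 -0.52 ± 0.066, adjusted p = 0.00018) and was at 0.00 in 5637 (adjusted p = 0.98, limma). The only probe set of TRIM65 has an ID that marks shared probes, so the gene could not be tested without them.

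TRIM7, which binds glycogenin, was the member with the largest fall in 5637. It was at -0.61, -0.82 and -0.62 in 5637_HOTAIR 4 and 0.60, 0.60 and 0.55 in 5637_LV, a fall of 1.27 ± 0.068 on the log2 scale (adjusted p = 3.5e-06, limma). The 3 probe sets ranged from -2.63 to -0.15, and 2 of them fell. In VM-CUB1 the groups were apart by little, with HOTAIR at -0.01, -0.09 and -0.02 and vector at 0.06, 0.07 and 0.03, and the gene was not called (-0.10, adjusted p = 0.18). TRIM8, a regulator of JAK-STAT signalling through SOCS1, was at 0.53, 0.55 and 0.53 with HOTAIR and -0.55, -0.54 and -0.51 with vector in VM-CUB1, and at 0.07, 0.19 and 0.16 with HOTAIR and -0.07, -0.13 and -0.21 with vector in 5637. It rose 2.11-fold in VM-CUB1 (adjusted p = 3.6e-07) and 1.21-fold in 5637 (adjusted p = 0.0061, limma), a difference of 0.80 (95% interval 0.64 to 0.96). The call in 5637 was lost without any 1 array but 5637_LV replicate 1 (0.01 to 0.028). TRIM11, a ligase of protein quality control, fell by 0.33 in VM-CUB1 and by 0.45 in 5637 on the log2 scale (adjusted p = 0.0052 and 0.00028), and TRIM41 was at 0.33 and -0.38 (adjusted p = 0.003 and 0.00059, limma). The 4 probe sets of TRIM41 ranged from -0.11 to 0.70 in VM-CUB1, where 2 rose, and from -0.52 to -0.21 in 5637, where 3 fell.

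The other calls of these 18 genes in VM-CUB1 were those of TRIM68, which rose (0.64), and of TRIM4 (-0.49), TRIM35 (-0.48) and TRIM17 (-0.31), which fell. TRIM37, a ligase of peroxisomes and centrosomes, fell in 5637 (-0.30, adjusted p = 0.0037), a call lost without 5637_LV replicate 1 or 3, and without replicate 2 or 3 of 5637_HOTAIR 4 (0.011 to 0.015, limma). With 1 array less, the 18 genes gave 1 to 2 rises and 3 to 6 falls in 5637, the fewest falls without 5637_HOTAIR 4 replicate 2.

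**Figure D4:**
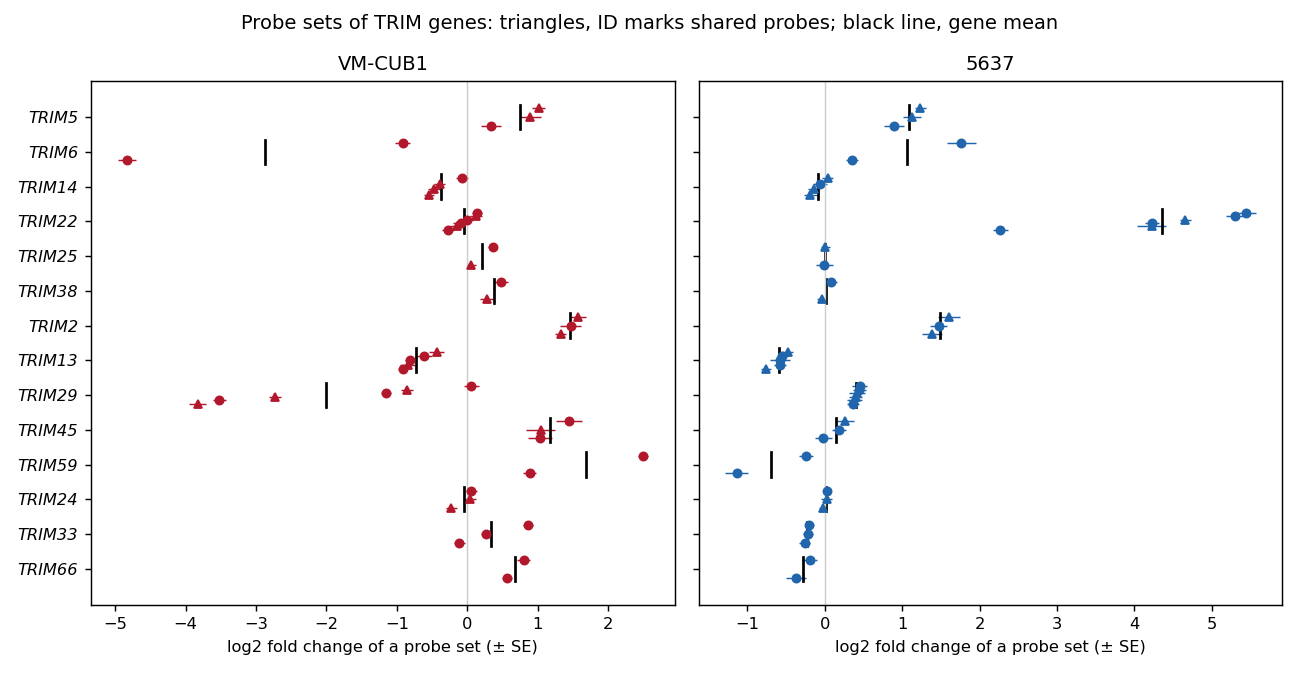
Log2 fold change of HOTAIR against vector (x axis, bars of 1 SE) of the single probe sets of 14 TRIM genes in VM-CUB1 (left) and 5637 (right), with triangles for probe sets whose ID marks shared probes, circles for the others and a black line at the gene's mean. The probe sets of TRIM22 range from 2.27 to 5.44 in 5637, while those of TRIM6 and TRIM29 spread over 3 log2 units in VM-CUB1.

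At the level of single probe sets, 31 of 156 rose and 29 fell in VM-CUB1, where 36.6% of all probe sets were called, and 20 rose and 18 fell in 5637, where 24.3% were called (limma, adjusted over 49293 probe sets). They belonged to 29 genes in VM-CUB1 and 17 in 5637, and in 0 genes were probe sets called in both directions. Of the 44 genes with several probe sets, 8 in VM-CUB1 and 4 in 5637 had all of them called one way. HOTAIR and vector arrays did not overlap for 35 TRIM genes in VM-CUB1 and 28 in 5637, beside 58% and 51.3% of all genes.

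Few calls were made among the cytoskeletal members with a COS box, those of the major histocompatibility region and the multicopy genes, at 1 of 6, 1 of 6 and 1 of 8 in VM-CUB1, beside 41.6% of all genes, and 0 in 5637, beside 29.9%. The median absolute log2 fold change of the COS-box genes in VM-CUB1 was 0.20, beside 0.20 over all genes, and 4 of the 6 had arrays that did not overlap. Of these 6 genes, TRIM63, a ligase of muscle atrophy, fell in VM-CUB1 (log2 -0.28, adjusted p = 0.0014), and 0 were called in 5637. Without VM-CUB1_LV replicate 2, TRIM67 fell too (adjusted p = 0.0074), and without 5637_HOTAIR 4 replicate 2 TRIM54 fell in 5637 (0.0054, limma). The 5 probe sets of TRIM63 ranged from -0.55 to 0.19 in VM-CUB1, where 3 fell. The 2 without shared probes were at -0.55 and 0.19. When only such probe sets were used, 0 of the 6 COS-box genes were called in VM-CUB1, so the call of TRIM63 was lost. Of 6 genes in the histocompatibility region of chromosome 6, TRIM27 rose in VM-CUB1 (0.46, adjusted p = 6.7e-05) and 0 were called in 5637. Of the 3 probe sets of TRIM27, 2 rose in VM-CUB1 (0.74 and 0.88), while the one at -0.23 was not called. The 8 genes listed as multicopy include some with near-identical copies that probes may not separate. Of the 8, TRIM52 rose in VM-CUB1, at 0.32, 0.35 and 0.27 with HOTAIR and -0.30, -0.32 and -0.53 with vector (0.70 ± 0.074, adjusted p = 5.8e-05, limma). Its probe set with shared probes rose there by 0.57 and the one without shared probes by 0.83. TRIM51 fell as well without VM-CUB1_LV replicate 1 (0.0051). In 5637, 0 of the 8 were called. At an unadjusted p under 0.05, limma gave 1 COS-box gene, 0 genes of the histocompatibility region and 1 multicopy gene in 5637, and the methods' t-test gave 1 in each of the 3 groups and called 0 after adjustment.

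**Figure D5:**
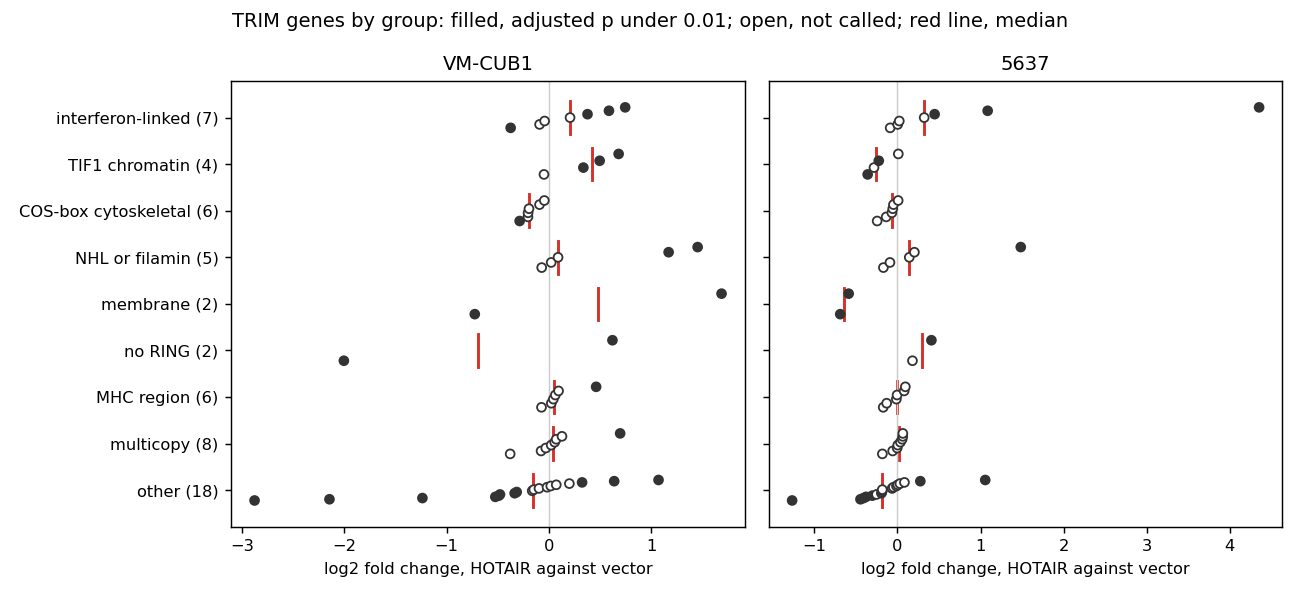
Log2 fold change of HOTAIR against vector (x axis) for each TRIM gene, by family group with its number of genes (y axis), in VM-CUB1 (left) and 5637 (right). Filled points had an adjusted p under 0.01, open points did not, and a red line marks the group's median, which is 0.42 in VM-CUB1 and -0.25 in 5637 for the TIF1 members.

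Genes of related proteins that carry other symbols were set beside the family. Of 7 such genes, 3 were higher and 1 was lower with HOTAIR in VM-CUB1, beside 21.1% and 20.5% of all genes. In 5637, 2 were higher, beside 14.7%. MID2, a microtubule-bound relative with a COS box, rose in both lines, by 0.98 ± 0.064 in VM-CUB1 (adjusted p = 2.7e-06) and by 1.11 ± 0.062 in 5637 (adjusted p = 4.3e-06, limma). PML, the organiser of nuclear bodies, rose in 5637 (0.39, adjusted p = 0.00029) and was at -0.14 in VM-CUB1 (adjusted p = 0.11). TRIML2 rose 3.09-fold in VM-CUB1 (adjusted p = 2.7e-06) and was not called in 5637 (adjusted p = 0.36, limma). The fall in VM-CUB1, that of CMYA5, was lost without any 1 array but VM-CUB1_HOTAIR 20 replicate 3 (0.011 to 0.04).

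Genes of interferon signalling were listed with the interferon-linked TRIM genes. Of 17 measured receptors, ligands, kinases and IRF factors, 7 were higher and 1 was lower with HOTAIR in VM-CUB1, beside 21.1% and 20.5% of all genes. In 5637, 11 were higher and 1 was lower, beside 14.7% and 15.2%. IRF7, a factor that drives interferon genes, rose 3.36-fold in VM-CUB1 (adjusted p = 2.6e-06) and 2.99-fold in 5637 (adjusted p = 3e-06). IRF9, a factor that binds DNA at the ISRE, rose 1.54-fold and 1.62-fold (adjusted p = 0.0001 and 2.2e-05, limma). IRF1 rose 2.01-fold in 5637 (adjusted p = 1e-05) and was at -0.09 in VM-CUB1 (adjusted p = 0.29), a difference between the lines of -1.09 (adjusted p = 2.9e-07, limma). TYK2, a kinase of the type I receptor, rose in VM-CUB1 (2.01-fold) and fell in 5637 (-0.51). The single falls became 2 without VM-CUB1_LV replicate 2 in VM-CUB1, and without 5637_HOTAIR 4 replicate 1 or 5637_LV replicate 1 in 5637.

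Of 12 ubiquitin-conjugating enzymes and ISG15 pathway genes, with which TRIM ligases work, 3 were higher and 4 were lower with HOTAIR in VM-CUB1. These counts stand beside 21.1% and 20.5% of all genes. In 5637, 8 were higher and 2 were lower, beside 14.7% and 15.2%. Without shared probes, 9 of the 12 could be tested, with 1 higher and 4 lower in VM-CUB1 and 6 higher and 2 lower in 5637. UBE2L6, the conjugating enzyme for ISG15, rose 5.3-fold in 5637 (adjusted p = 6.6e-07) and was at -0.23 in VM-CUB1 (adjusted p = 0.066, limma). ISG15 itself rose more in VM-CUB1 (6.01-fold) than in 5637 (1.43-fold), a difference of 2.07 on the log2 scale (adjusted p = 3.1e-09). HERC5, a ligase for ISG15, rose 5.95-fold in VM-CUB1 and 2.55-fold in 5637, and UBE2E2 fell 6.22-fold in VM-CUB1 and rose 1.3-fold in 5637 (limma).

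Markers of other cell types were checked beside these results. Of 19 markers of blood, endothelial, fibroblast, muscle, glial and liver cells, 2 were lower with HOTAIR in VM-CUB1 (CD68 at -1.02 and CD14 at -0.36) and 4 were higher in 5637 (CD14 at 0.92, LYZ at 0.41, PECAM1 at 0.30 and MBP at 0.19). Of all genes, 20.5% were lower in VM-CUB1 and 14.7% were higher in 5637. Without shared probes, 15 markers could be tested, with 0 called in VM-CUB1 and 2 higher in 5637. PTPRC, which all leukocytes carry, was at 0.08 in VM-CUB1 and 0.04 in 5637 and was not called. The CD14 fall was lost without VM-CUB1_HOTAIR 20 replicate 1 or 2 (0.01 to 0.011), and the 4 rises in 5637 became 2 without 5637_LV replicate 1, and without replicate 1 or 3 of 5637_HOTAIR 4. The centred values give no level for any marker, and their part in the TRIM results was not tested.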

How the data were processed

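RNA of 12 preparations was hybridised to PrimeView arrays. The authors processed them in GeneSpring GX 12.5 with RMA (named in the submitters' processing notes), followed by baseline transformation. The deposited table holds log2 values of 49395 probe sets. Annotation table and genome build of the authors' processing are not given in the sources used here. Of the probe sets, 102 were controls, 44988 carried a single symbol in GEO's platform annotation, 1832 more than 1 symbol, and 2473 no symbol. For 27 symbols no match in the gene table was found and the annotation's symbol was kept.

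HOTAIR was tested against vector within each line with limma 3.58.1 (lmFit, eBayes, two-sided, R 4.3.3) on gene values averaged over probe sets, with Benjamini-Hochberg adjustment over 18132 genes and a threshold of 0.01. The difference between the lines was the interaction over all 12 arrays. An error after ± is the standard error of the fit, and intervals are 95%. Precision is limited by how many arrays there are. The fit was also tested on simulated data. Figures were drawn with Python 3.11.15, pandas 2.3.3, numpy 2.4.6 and matplotlib 3.10.9.

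Members and lists were chosen with earlier results of these data known. Named were the interferon-linked and TIF1 members, TRIM29 and TRIM32, the 6 called TRIM genes with the largest rise and the 6 with the largest fall in each line, the 4 with the largest difference between lines, IRF9, PML and UBE2L6, and the 2 largest called genes of each further list in each line. The alternatives were the methods' t-test, a replicate block, 1 fit of all arrays, other scalings, other gene summaries, robust moderation, a threshold of 0.05 and each array left out in turn.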

Additional observations from a re-analysis of the deposited data

Results flagged for a closer look

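For 16 of the named TRIM genes the HOTAIR effect differed between the lines by limma's interaction term (adjusted p under 0.01). These genes were named in part for large changes or differences, so their number cannot be read against the share of all genes. Values are the log2 fold change in VM-CUB1 minus that in 5637. TRIM22, TRIM6 and TRIM29 had the most negative differences, at -4.39, -3.93 and -2.41. They were followed by TRIM47 at -1.74, TRIM56 at -0.98, TRIM65 at -0.53 and TRIM14 at -0.29. The most positive difference was that of TRIM59 at 2.38, followed by TRIM7 at 1.17, TRIM45 at 1.03 and TRIM66 at 0.97. TRIM52 was at 0.88, TRIM28 at 0.86, TRIM8 at 0.80, TRIM41 at 0.70 and TRIM33 at 0.56. That of TRIM14 was lost without VM-CUB1_HOTAIR 20 replicate 3, 5637_HOTAIR 4 replicate 2 or 3, or 5637_LV replicate 1, after quantile normalization, and without shared probes (-0.018). Each line is represented by 1 HOTAIR clone, so line and clone cannot be told apart.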

How the results depend on the processing

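The count of TRIM genes called in 5637 was 16, and it became 9 with the methods' t-test and 25 at a threshold of 0.05. With 1 array left out, 23 to 26 genes were called in VM-CUB1, 12 to 16 in 5637 and 19 to 23 for the difference between the lines. Deviations of same-numbered replicates from their group means correlated at -0.045 to 0.083, and those of unlike-numbered ones at -0.069 to 0.079. With 3 arrays in a group, these values cannot decide whether the numbers mark pairs. With a replicate block, 24 genes were called in VM-CUB1, 14 in 5637 and 20 for the difference. Among single genes and alternatives, 1478 values kept their direction and call, 65 lost the call, 20 gained it and 22 turned sign. None of the turned values was called, before or after. TRIM24 turned to 0.055 in VM-CUB1 and its difference to 0.027 when probe sets with shared probes were left out, TRIM25 in 5637 to -0.0036 likewise, and TRIM24 in 5637 to -0.0016 with the median of probe sets. The difference of TRIM2 turned to 0.028 with that median, and those of TRIM13 and TRIM21 to 0.28 and -0.08 after quantile normalization, under which the differences of TRIM2 (-0.67) and TRIM5 (-0.70) gained the call. For the difference, this normalization gave all 12 arrays the same distribution, although changes of at least 2-fold were called for 11.7% of genes in VM-CUB1 and 3.74% in 5637. It rescales the lines against each other, so its differences cannot be read on the scale of the main fit. With 1 array left out, TRIM24 ranged from -0.10 to 0.00031 in VM-CUB1 and from -0.008 to 0.028 in 5637. In 5637, TRIM25 ranged from -0.052 to 0.051, TRIM38 from -0.0046 to 0.052 and TRIM65 from -0.05 to 0.09, and the difference of TRIM2 from -0.16 to 0.07. The causes were not tested. The methods' t-test lost TRIM8, TRIM21, TRIM28, TRIM29, TRIM47 and TRIM59 in 5637 and TRIM11, TRIM38, TRIM41 and TRIM45 in VM-CUB1, among the TRIM genes named by the rule. The replicate block lost TRIM8 and TRIM33 in 5637 and TRIM11, TRIM38 and TRIM41 in VM-CUB1. The filter on dim probe sets was not run, because centred values hold no level, so genes near background could not be told from the rest.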
